A study of Mus musculus with 8 samples.

Results

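The complement system is a cascade of plasma and membrane proteins that tags cells and microbes for removal. The classical and lectin pathways are started by recognition molecules and their proteases, whereas the alternative pathway runs at a low rate on any surface and is held back on host cells by soluble and membrane regulators. The liver makes most of the circulating components, but epithelial cells, fibroblasts, endothelial cells and macrophages also transcribe some of them, which is why transcript levels in a pure epithelial culture and in whole tissue can be set side by side. Described here are 9 complement components and regulators, chosen by symbol from the 16119 genes of a normalized count table: C3, CFB, CFP and C2 among the components and activating proteases, CFI, SERPING1 and CLU among the soluble regulators, CD55 on the membrane, and the receptor C5AR1. All 9 were listed, and all 9 passed the filter on low values that the tests used.

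The 8 libraries, 2 in each of 4 groups, were all made from RNA of wild-type C57BL/6 mice. Thyroid follicular cell organoids (TFCOs) are epithelial cultures grown in basement membrane extract with R-spondin 3, A83-01, forskolin, EGF and FGF10. Lines mThy14 and mThy16, each plated from the cells of one thyroid, were sequenced at an early and at a late passage, so that the early and the late TFCO groups hold the same 2 lines. Thyroid tissue and lung tissue, the unrelated control, were whole tissues, and no group received a treatment. The ages of the mice are not given in the sources used here.

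Between 9755081 and 16904865 reads per library lay on genes, and a count of 0 allows up to 2.02 to 4.22 normalized counts, depending on the library (3 reads, counting error only). Each of the 5 follicular markers checked, PAX8, NKX2-1, TSHR, FOXE1 and TG, had 878 or more normalized counts in every TFCO library. TG was the 1 marker of the 5 below both thyroid tissues in every TFCO library, at 9532 to 126441 against 1526000 and 2175020. TSHR lay above both, at 1882 to 7739 against 1287 and 1087. The summed macrophage and leukocyte markers (7 genes) were at 59.3 to 80.2 normalized counts in TFCOs. They summed to 1390.2 and 2401 in thyroid tissue and to 10155 and 6584 in lung tissue. Of the 7 genes, 6 were below both thyroid tissues in every TFCO library, among them CSF1R, at 7.03 to 42.5 against 560 and 770. The exception was CD68, at 0 to 4.22 in TFCOs, 0 in thyroid tissue 1 and 139 in thyroid tissue 2. The summed fibroblast markers (6 genes) were at 91.6 to 247 in TFCOs and at 22583 to 38732 in the tissues, with LUM at 0 in every TFCO library. The summed endothelial markers (5 genes) were at 180 to 519 in TFCOs, 2551 and 6391 in thyroid tissue and 23400.0 and 43315 in lung tissue. The thyroid tissues also carried the parathyroid hormone gene PTH at 8411 and 25341 and the C cell gene CALCA at 19984 and 36502, so that they held more than follicles. The libraries also divided into 2 sets across the groups. In thyroid tissue 2 and both lung tissues, 44 genes were listed at 0 that had 50 or more normalized counts in each of the other 5 libraries, and 16 genes showed the reverse. TFCOs can therefore be compared within a set only with thyroid tissue 1, lung only with thyroid tissue 2, and in comparisons of TFCOs with lung the set and the tissue cannot be told apart.

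CLU encodes clusterin, a secreted chaperone that binds the assembling terminal complement complex and keeps it out of membranes (chromosome 14, 65968483 to 65981547, plus strand; this and all later positions are from GENCODE M21 on the mouse build GRCm38, since the deposited table carries none). Line mThy14 had 5316 normalized counts at early passage and 12163 at late passage, and mThy16 had 62331 and 57847. The tissues were lower, at 821 (thyroid 1), 1213 (thyroid 2), 3415 (lung 1) and 1743 (lung 2). All 4 TFCO libraries lay above all 4 tissue libraries. In mThy16, CLU alone took 0.518% of the counts at early and 0.477% at late passage. Counting the 2 lines as samples, CLU was higher in TFCOs, by 4.46 to thyroid tissue on the log2 scale (SE 0.90, limma adjusted p = 0.0460, n = 2 lines and 2 tissues) and by 3.17 to lung tissue (SE 0.90, limma adjusted p = 0.0447). Both calls stood near the threshold. Against thyroid tissue 1 alone, the tissue of the same set, the log2 difference was 4.74 and the limma adjusted p was 0.150. The call against thyroid was also lost without the late mThy14 library (adjusted p = 0.0862), without thyroid tissue 1 (0.0589), without lung tissue 1 (0.103) and without lung tissue 2 (0.107), and the call against lung was lost without the late mThy14 library (0.0760), without thyroid tissue 2 (0.0503), without lung tissue 1 (0.159) and without lung tissue 2 (0.219).

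SERPING1, the C1 inhibitor, blocks the proteases that start the classical and lectin pathways (chromosome 2, 84765387 to 84775444, minus strand). It lay at the other extreme, at 15.5 normalized counts (early) and 12.5 (late) for mThy14 and at 18.8 and 26.8 for mThy16. Thyroid tissue held 906 and 1263, and lung tissue held 7993 and 5215. The 3 kinds of sample did not overlap, and no TFCO library held more than 24 reads of it. SERPING1 was lower in TFCOs than in thyroid tissue by a log2 fold change of -5.84 (SE 0.43, limma adjusted p = 0.00179), and than in lung tissue by -8.43 (SE 0.43, limma adjusted p = 0.000217). Within the set, against thyroid tissue 1, the log2 fold change was -5.60 with an adjusted p of 0.0304. The macrophage, fibroblast and endothelial marker sums given above moved in the same direction between TFCOs and tissue, and their part in the difference was not tested. Fewer cells of a type and less RNA per cell cannot be told apart in these bulk libraries.

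**Figure D1:**
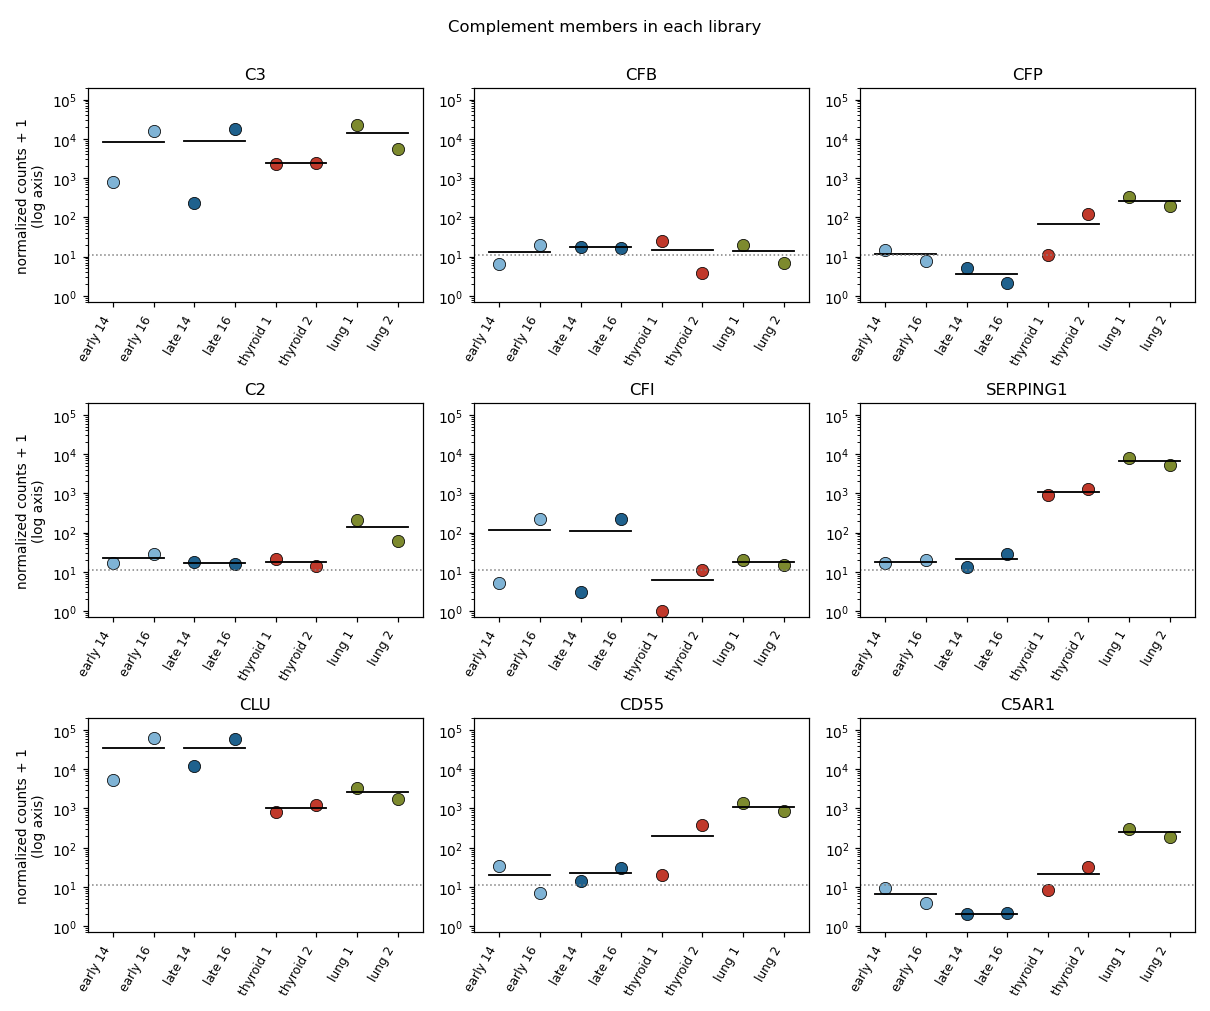
Normalized counts + 1 of the 9 complement genes in each library on a log axis, with early and late TFCOs of lines 14 and 16 in blue, thyroid tissue in red and lung tissue in green; black bars are the means of 2 libraries and the dotted line marks 10 normalized counts. CLU is above every tissue library in all 4 TFCO libraries, SERPING1 is below every tissue library in all 4, and C3 and CFI split the TFCOs by line.

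Among the 9 genes, CLU and SERPING1 were thus the ones that passed the test between TFCOs and thyroid tissue, 1 higher and 1 lower, where 0.599% of the 14703 genes tested were called higher and 3.05% lower. The median log2 fold change of the 9 genes was 0.13, against 0.05 over all genes tested. Against lung tissue 1 of the 9 genes was called higher and 4 lower (SERPING1, CFP, CD55 and C5AR1), with a background of 9.83% and 13.5% of all genes, a median of -2.59 for the 9 genes and 0.05 for all. Without lung tissue 1 or without lung tissue 2, SERPING1 was the 1 gene of the 9 still called against lung, and the adjusted p of CFP, CD55, C5AR1 and CLU then ranged from 0.105 to 0.219 while their directions stayed. TFCOs against thyroid and TFCOs against lung use the same TFCO libraries.

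**Figure D2:**
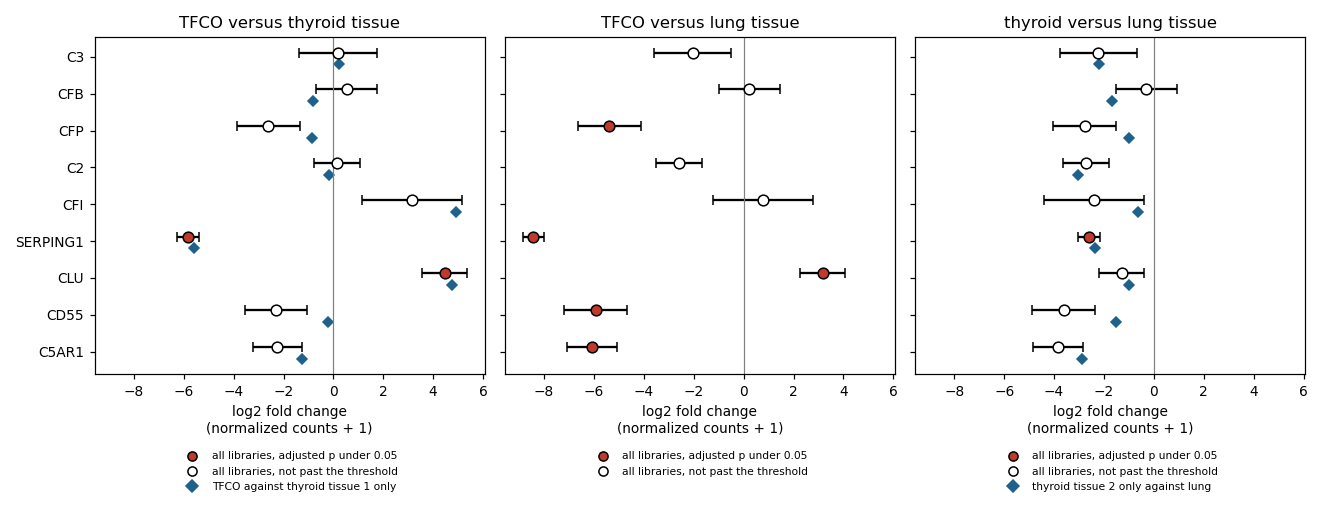
Log2 fold changes of log2(normalized counts + 1) for the 9 genes in 3 comparisons, with bars of 1 standard error; red circles passed an adjusted p of 0.05 and open circles did not, and blue diamonds are the differences within 1 set of libraries. The difference between TFCOs and thyroid tissue for CD55 moves from -2.31 with both thyroid tissues to -0.21 with thyroid tissue 1 alone, whereas SERPING1 moves from -5.84 to -5.60.

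C3 is the component on which all 3 pathways converge, since each pathway ends in an enzyme that cleaves it (chromosome 17, 57203970 to 57228136, minus strand). Line mThy14 had 807 normalized counts at early and 225 at late passage, against 16192 and 17629.8 for mThy16. Thyroid tissues 1 and 2 held 2294 and 2429, between the lines, and lung tissues 1 and 2 held 22510.4 and 5479. The 2 lines therefore lay on either side of thyroid tissue at both passages. As a group, TFCOs had a log2 fold change of 0.19 to thyroid tissue (SE 1.55, limma adjusted p = 0.954), a value inside the spread between the lines. On the recovered reads the same difference of C3 was 1.90 with edgeR (adjusted p = 0.485) and 1.91 with DESeq2 (adjusted p = 0.338), also short of the threshold. Per kilobase of the longest transcript, CLU was the highest and C3 the next of the 9 genes in all 4 TFCO libraries, at 2937 and 157 normalized counts per kilobase in early mThy14 and at 34437 and 3153 in early mThy16. In both thyroid tissues the order was different: SERPING1 was the highest, at 512 and 714 per kilobase, followed by CLU at 453 and 670.3 and C3 at 447 and 473. The per-kilobase values assume reads over the whole transcript, and the labels and the study's methods describe different library kits.

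CFI encodes the serine protease that cuts the active fragments of C3 and C4 into inactive forms once a cofactor is bound (chromosome 3, 129835884 to 129875332, plus strand). TFCOs of mThy16 had 221 normalized counts at early and 219 at late passage, whereas those of mThy14 had 4.22 and 2.08, from 3 and 2 reads. Thyroid tissue 1 was at 0 and thyroid tissue 2 at 10.1, with lung tissues 1 and 2 at 19.3 and 14.2. CFI was thus above all 4 tissue libraries in one line and below both lungs in the other. The ratio of mThy16 to mThy14 was 52.4 at early passage (exact 95% interval 17.7 to 256, counting error only) and 105 at late passage (28.8 to 875). The group comparison with thyroid tissue gave a log2 fold change of 3.16 (SE 2.00, limma adjusted p = 0.409). For CFI it was 4.90 against thyroid tissue 1, the tissue of the same set, at 0 reads (limma adjusted p = 0.373), and 1.42 against thyroid tissue 2 (limma adjusted p = 0.670). On the recovered reads edgeR gave 4.42 (adjusted p = 0.304) and DESeq2 4.48 (adjusted p = 0.102).

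The split between the lines was shared by other complement genes. Of the 43 complement genes tested, members and a wider list together, 4 were higher in mThy16 than in mThy14 by 3 or more on the log2 scale at both passages, and 0 were lower by as much, where 1.44% and 0.238% of all genes tested met these limits. The 4 were C3, CFI, CFHR2 and CPN1, and they were singled out after their values were seen, so no test is given. CPN1, the catalytic subunit of the carboxypeptidase that trims the anaphylatoxins, was at 0 in both mThy14 libraries and at 413 and 481 in mThy16, at least 97.9-fold and 154-fold higher when 3 reads are put in place of 0. In the tissues CPN1 was at 0 and 2.77 in thyroid and 102 and 89.0 in lung.

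CFHR2 had 38.6 normalized counts in early mThy16 and 63.7 in late mThy16. It was at 0 in both mThy14 libraries, so that it was at least 9.16-fold higher in mThy16 at early and 20.4-fold at late passage when 3 reads are put in place of 0. CFHR2 was also counted in thyroid tissue 1, at 15.2, and was at 0 to 1.35 in thyroid tissue 2 and in lung. The tissues thus divided as the 2 sets of libraries do, whereas the mThy14 libraries, in the set of thyroid tissue 1, were at 0. The gene belongs to a family with long shared stretches of sequence, and its reads may be divided among relatives.

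Other genes that separate the lines are given here as values, and their part in the complement genes' difference was not tested. The epithelial keratin KRT7 was at 225 and 891 in early and late mThy14 and at 5320 and 5569 in mThy16. The epithelial markers did not move together. KRT8 and KRT18 were also higher in mThy16 at both passages, but EPCAM was lower, by log2 differences of -1.01 and -0.65. CDH1 changed sign, at 0.28 and -0.28. TG was at 126441 and 64646 in mThy14 and at 12225 and 9532 in mThy16. The macrophage and leukocyte markers summed to 66.1 and 59.3 in mThy14 and to 80.2 and 76.0 in mThy16. Fibroblast sums were 247 and 91.6 against 114 and 132, and endothelial sums 180 and 519 against 324 and 272, so that these overlapped between the lines. The 3 hepatocyte markers together were at 1.98 to 18.3 in the TFCO libraries. CLU was also higher in mThy16, 11.7 times at early and 4.76 times at late passage. Its lowest TFCO value, 5316 in early mThy14, lay above the highest tissue value, 3415 in lung tissue 1.

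**Figure D3:**
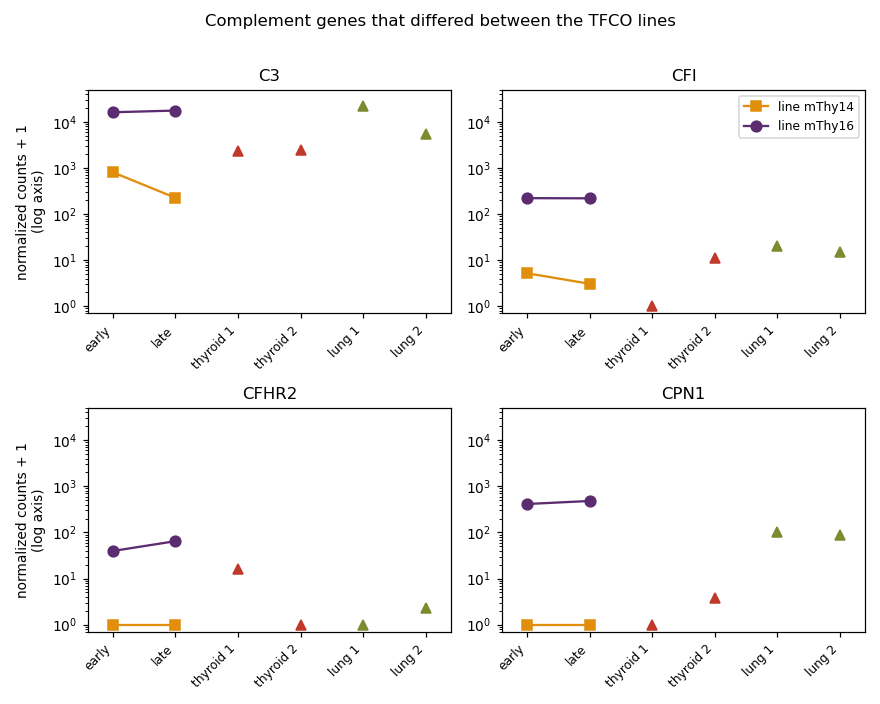
Normalized counts + 1 on a log axis for the 4 complement genes that separate the TFCO lines, with early and late passage of mThy14 (orange squares) and mThy16 (purple circles) joined by lines, and thyroid (red) and lung (green) libraries as triangles. C3, CFI and CPN1 are higher in mThy16 at both passages, and CFHR2 has counts in mThy16 and in thyroid tissue 1 but at most 1.35 in thyroid tissue 2 and lung.

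CFB, CFP and C2 supply the enzymes around C3. CFB encodes factor B, the protease of the alternative pathway enzyme (chromosome 17, 34856374 to 34862518, minus strand). It was low everywhere, at 5.62 normalized counts (early) and 16.7 (late) for mThy14, 18.8 and 15.7 for mThy16, 23.9 and 2.77 for thyroid and 19.3 and 6.07 for lung. The groups overlapped throughout, and the log2 fold changes of 0.53 to thyroid (limma adjusted p = 0.822) and 0.23 to lung (limma adjusted p = 0.897) were smaller than their standard errors of 1.23. The signal is also uncertain, because 81.4% of the 50-base stretches of CFB are shared with other genes, mostly the overlapping read-through transcript Gm20547.

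C2 encodes the protease of the enzyme that the classical and lectin pathways build, and lies next to CFB (chromosome 17, 34862604 to 34898265, minus strand). Line mThy14 was at 15.5 normalized counts (early) and 16.7 (late), mThy16 at 27.7 and 14.5, thyroid at 20.7 and 12.9, and lung at 210.2 and 60.7. TFCOs and thyroid tissue overlapped and lay below both lungs. The log2 fold change of C2 was 0.13 to thyroid (SE 0.93, limma adjusted p = 0.947) and -2.59 to lung (SE 0.93, limma adjusted p = 0.0768). The latter passed the threshold when either thyroid tissue was left out of the fit (adjusted p = 0.0418 without thyroid tissue 1 and 0.0398 without thyroid tissue 2). As for CFB, 58.0% of its stretches are shared, mostly with Gm20547.

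CFP encodes properdin, which stabilises the alternative pathway enzyme and is made by neutrophils, monocytes and T cells (chromosome X, 20925454 to 20931555, minus strand). Line mThy14 was at 14.1 normalized counts (early) and 4.16 (late), and mThy16 at 6.93 and 1.12, from 1 to 10 reads. Thyroid tissue 1 was in the same range at 9.80, thyroid tissue 2 was at 124, and lung tissues 1 and 2 were at 328 and 191. The thyroid tissues thus differed from each other by more than thyroid tissue 1 differed from the TFCOs. The log2 fold change was -5.38 to lung (SE 1.25, limma adjusted p = 0.0286) and -2.61 to thyroid (SE 1.25, limma adjusted p = 0.316), and -0.84 to thyroid tissue 1 alone (limma adjusted p = 0.667). Without thyroid tissue 1 the difference to thyroid was -4.37 and passed the threshold (limma adjusted p = 0.0195), as it did with both tissues in DESeq2 on the recovered reads (-3.39, adjusted p = 0.0293).

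CD55, the decay-accelerating factor, takes apart the C3-cleaving enzymes on the cell's own membrane (chromosome 1, 130439027 to 130462744, minus strand). Line mThy14 was at 32.3 normalized counts (early) and 13.5 (late), and mThy16 at 5.94 and 29.1. Thyroid tissue 1 held 19.6, inside the range of the TFCOs, and thyroid tissue 2 held 377, with 1340.2 and 878 in lung tissues 1 and 2. The TFCOs and thyroid tissue 1 lay in one range, and the other 3 libraries, which form the other set, lay above it. The log2 fold change to thyroid was -2.31 with both tissues (SE 1.26, limma adjusted p = 0.358), -0.21 against thyroid tissue 1 (limma adjusted p = 0.908) and -4.41 against thyroid tissue 2 (limma adjusted p = 0.00963). With both tissues, DESeq2 on the recovered reads called CD55 lower (-3.34, adjusted p = 0.0214) and edgeR did not (-3.35, adjusted p = 0.206). To lung it was -5.93 (SE 1.26, limma adjusted p = 0.0216). CD55 shares 13.3% of its 50-base stretches with its neighbour Cd55b.

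C5AR1 is the receptor through which the fragment C5a attracts and activates neutrophils and macrophages (chromosome 7, 16246743 to 16259540, minus strand). Line mThy14 was at 8.43 normalized counts (early) and 1.04 (late), and mThy16 at 2.97 and 1.12, from 1 to 6 reads. Thyroid tissue held 7.62 and 32.3, and lung tissue 306 and 192. All 4 TFCO libraries lay below both lungs and below thyroid tissue 2, and they overlapped with thyroid tissue 1. The log2 fold change was -6.09 to lung (SE 1.00, limma adjusted p = 0.0101) and -2.25 to thyroid (SE 1.00, limma adjusted p = 0.286). Without thyroid tissue 1 the difference to thyroid was -3.22 (limma adjusted p = 0.0313), and with thyroid tissue 1 alone it was -1.27 (limma adjusted p = 0.448). Lung held the most macrophage, leukocyte and neutrophil marker counts, and their part in the difference was not tested.

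On the log2(normalized counts + 1) scale, thyroid tissue 2 was above thyroid tissue 1 by 3 or more for 3 of the 9 genes, by 4.20 for CD55, 3.53 for CFP and 3.48 for CFI, and below by as much for 0, where 5.24% and 6.98% of all genes tested met these limits. CFI met the limit through the pseudocount, since with 3 reads in place of its 0 in thyroid tissue 1 the log2 difference was at least 1.63. C3, SERPING1 and CLU differed between the thyroid tissues by 0.08, 0.48 and 0.56. Of the 34 other complement genes tested, 4 were higher in thyroid tissue 2 by this limit and 3 were lower. The difference was 7.92 for CFD, which encodes the protease that activates factor B and is made by fat cells (14.2 and 3661 normalized counts), 3.86 for CR1L, a mouse membrane regulator (69.7 and 1027), 4.73 for C1QA and 3.83 for CD93, and it was -4.85 for C4A, -3.42 for the lectin pathway protease MASP2 and -4.02 for CFHR2 (-2.46 with 3 reads in place of its 0). The 4 adipocyte markers did not move together: ADIPOQ was at 3.27 in thyroid tissue 1 and 1142 in thyroid tissue 2 and FABP4 at 607 and 5034, whereas PLIN1 was at 1051 and 644 and LEP at 49.0 and 20.3. Skeletal muscle markers summed to 35416 and 109955 and endothelial markers to 2551 and 6391. The part of these cell types in the differences was not tested. C4A and C4B, near-identical copies of the component cleaved by the classical pathway, were counted alike in all 5 libraries of the first set, at 93.9 to 241 for C4A and 91.7 to 254 for C4B, whereas in the other 3 libraries C4A was at 5.86 to 27.6 and C4B at 236 to 5568. The division of reads between C4A and C4B therefore followed the set, and the levels of either gene are uncertain.

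All 9 genes had a negative log2 fold change from lung to thyroid tissue, as 7191 of the 14703 genes tested had. The changes ran from -3.85 for C5AR1 to -0.30 for CFB (SE 1.23), whose values overlapped between the tissues. The median was -2.59 against 0.03 over all genes tested. SERPING1 alone passed the threshold, at -2.59 (SE 0.43, limma adjusted p = 0.0209), where 2.89% of all genes were called higher in thyroid and 3.16% lower. With thyroid tissue 2, the thyroid tissue in the set of the lungs, the log2 fold change of SERPING1 was -2.35 and missed the threshold (limma adjusted p = 0.0591), as it did without lung tissue 1 (limma adjusted p = 0.249) and without lung tissue 2 (limma adjusted p = 0.173). Without thyroid tissue 2 it was -2.83 (limma adjusted p = 0.0155), and CFP (-4.54, limma adjusted p = 0.0171), CD55 (-5.72, limma adjusted p = 0.00729) and C5AR1 (-4.82, limma adjusted p = 0.0121) were then called lower as well.

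By level, 4 of the 9 genes (C3, C2, SERPING1 and CLU) had 10 or more normalized counts in every TFCO library, where 77.4% of the 14703 genes tested did. C5AR1 was the 1 gene below 10 in every TFCO library and at 10 or more in both libraries of a tissue, which 4.03% of all genes were, and 4 (CFB, CFP, CFI and CD55) were mixed or low. With 50 normalized counts as the level, C3 and CLU remained measured in every TFCO library (59.4% of all genes), and 5 genes were below it in every TFCO library and above it in both libraries of a tissue (10.8% of all genes). For SERPING1 this held in thyroid and in lung tissue. For CFP, C2, CD55 and C5AR1 it held in lung alone, since C2 and C5AR1 were below 50 in both thyroid tissues and CFP and CD55 in thyroid tissue 1. With more than 3 reads as the level, 6 of the 9 genes (C3, CFB, C2, SERPING1, CLU and CD55) were measured in every TFCO library and 0 were found in tissue alone, against 86.2% and 1.35% of all genes. CFI belonged to neither class at any of these levels.

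The wider list held 56 other complement genes, of which 39 were in the table and 34 were tested. The 3 chains of C1q, the recognition molecule of the classical pathway, were low in TFCOs. C1QB was at 0 to 4.16 normalized counts in TFCOs, at 367 and 673 for thyroid and at 761 and 313 for lung, and its partners C1QA and C1QC, which are made by macrophages as C1QB is, were at 0 to 1.12 and 0 to 29.5 in TFCOs. C1QB was lower in TFCOs than in thyroid tissue by a log2 fold change of -7.84 (SE 0.74, limma adjusted p = 0.00509) and by -7.40 against thyroid tissue 1 alone (limma adjusted p = 0.0364). The other genes of the list called lower than in thyroid tissue were C1QC, the scavenger receptor COLEC12 and the integrin subunit ITGB2 of the complement receptors, 4 in all, and 0 were called higher. Of all genes tested, 3.05% were called lower and 0.599% higher. C1QC and ITGB2 missed the threshold against thyroid tissue 1 alone, at limma adjusted p-values of 0.101 and 0.0909. C1QA, at 27.2 and 747 in the thyroid tissues, was called lower in TFCOs without thyroid tissue 1 (limma adjusted p = 0.00543) and not with it.

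Against lung, 15 of the 34 genes were called lower in TFCOs and 1 higher, where 13.5% and 9.83% of all genes tested were. The 15 held C4B, for which the division of reads with C4A followed the set, as given above. The lower genes included C6 and C7 of the terminal complex, VTN, which encodes the terminal pathway inhibitor vitronectin, and CR1L. CR1L followed the sets of libraries, at 43.6 to 109 in TFCOs and 69.7 in thyroid tissue 1. It was at 1027 in thyroid tissue 2 and at 1136 and 938 in lung. C7 was at 3.96 to 9.37 normalized counts in TFCOs, 33.7 and 53.5 in thyroid and 4309 and 3087 in lung. The higher gene was CSMD2, which encodes a large membrane protein with complement control domains, at 1758 (early) and 698 (late) for mThy14, 129 and 211 for mThy16, 58.8 and 55.3 for thyroid and 0 and 0.674 for lung. SUSD4, another membrane protein with such domains, was at 146 to 569 in TFCOs, 136 and 58.1 in thyroid and 336 and 263 in lung, and was not called in any comparison. Between thyroid and lung 1 gene of the list was called higher (CSMD2) and 5 lower (C6, C7, COLEC12, ITGAX and ITGB2). Of all genes tested, 2.89% were called higher and 3.16% lower.

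**Figure D4:**
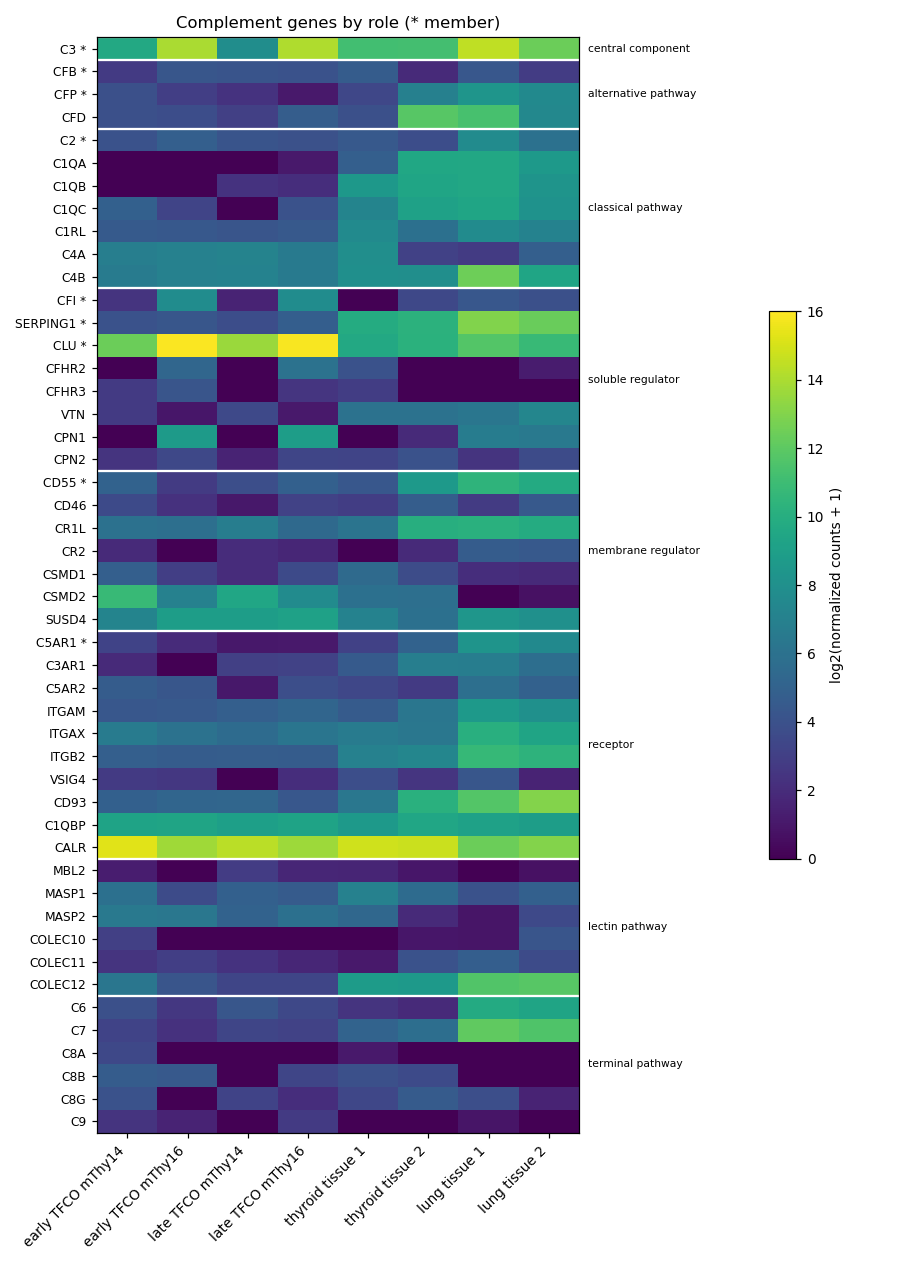
Log2(normalized counts + 1) of the 48 listed complement genes in the 8 libraries, grouped by role, with the 9 members marked by an asterisk. CLU and CALR are bright in all 4 TFCO libraries, C3 lies between them in mThy16 and below CSMD2 in mThy14, the C1Q chains and C7 are dark in TFCOs, and CFI and CPN1 are bright in mThy16 and dark in mThy14.

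Between late and early TFCOs 0 of the 9 genes and 0 of all genes tested were called in either direction (limma with Benjamini-Hochberg adjustment, 0% of 14703 genes). At an unadjusted p under 0.05 there were 166 genes in all and 0 of the 9, and on the recovered reads edgeR and DESeq2 also called 0 genes, with 160 and 260 at an unadjusted p under 0.05. The log2 fold changes of the 9 genes ran from -1.72 for CFP to 0.58 for CFB. The change had opposite signs in the 2 lines for 6 of the 9 genes, where 46.6% of all genes tested had. CFP and C5AR1 were lower at late passage in both lines, by log2 differences of -1.54 and -1.91 for CFP and -2.21 and -0.91 for C5AR1 in mThy14 and mThy16, but at 1 to 10 reads each. With 2 libraries per group, an exact two-sided permutation test cannot give a p below 0.333.

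Of the 9 genes, 4 have a promoter sequence in the RefSeq table used (GRCm38.p6): C3, CFP, CD55 and C5AR1. CFB, C2, CFI, SERPING1 and CLU have no entry in it. The 250 bases before the start were searched on both strands for 6 motifs: the GAS site TTCNNNGAA, the ISRE core, the CRE TGACGTCA and its core TGACG (which the full CRE contains), the C/EBP site TTGCNNAA, and the NF-kappaB site. A C/EBP match was found in C3, as in 9.56% of the 32851 promoters, and a CRE core in CD55, as in 17.8%. The sequences of C3, which separates the lines, and of CD55, which separates the sets of libraries, are shown 5′ to 3′ on the minus strand, with the match in capitals.
C3, chr17:57228137-57228386: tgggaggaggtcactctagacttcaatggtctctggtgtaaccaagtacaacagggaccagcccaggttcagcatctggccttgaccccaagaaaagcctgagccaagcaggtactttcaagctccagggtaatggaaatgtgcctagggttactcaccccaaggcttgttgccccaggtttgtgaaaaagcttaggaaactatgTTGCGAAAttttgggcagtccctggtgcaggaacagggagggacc
CD55, chr1:130462745-130462994: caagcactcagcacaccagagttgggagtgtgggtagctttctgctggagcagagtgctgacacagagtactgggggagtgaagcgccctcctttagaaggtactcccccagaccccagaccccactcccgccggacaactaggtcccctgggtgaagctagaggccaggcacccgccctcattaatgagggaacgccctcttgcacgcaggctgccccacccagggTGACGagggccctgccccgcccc
The C/EBP match TTGCGAAA lies at -45 to -38 from the start of C3, and the core TGACG at -23 to -19 from the start of CD55. A match says only that these letters are in the window. The 250 bases of C3 hold 52.0% G and C, and those of CD55 64.0%.

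Across the 8 libraries, C3 was most like MMD among all genes tested (Pearson r = 0.986 of the log2 values), CLU most like EPHA4 (0.981), SERPING1 most like PRKAG3 (0.994), CFI most like AIPL1 (0.977) and C5AR1 most like SLC2A12 (0.995). Among the 9 genes themselves, CFP and C5AR1 were the most alike pair (r = 0.968) and SERPING1 and CLU the most opposed (r = -0.735). These coefficients describe 8 libraries that share lines, tissues and sets, and carry no test.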

How the data were processed

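The 8 mouse libraries (TFCO lines mThy14 and mThy16 at 2 passages each, thyroid tissue and lung tissue, 2 of each) were grouped by the sample labels. The authors deposited normalized counts (a signal per gene: reads divided by 1 size factor per library). The study's methods name a stranded polyA kit, paired-end reads and DESeq2, the labels an adapted CEL-Seq library, and the submitters' processing notes list BWA 0.6.2-r126 with the builds hg38 and mm10, with no role for either; the counter and annotation are not given in the sources used here. Values were whole multiples of one step per library (100% within 0.1 read), which gave back 9755081 to 16904865 reads per library. For early mThy16 the step was 0.990 normalized counts; with a step of 1 in its place, 27.3% of its values would be whole.

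log2(normalized counts + 1) was fitted with limma 3.58.1 (R 4.3.3; mean-variance trend, Benjamini-Hochberg adjustment, two-sided) for the 14703 genes, of 16119, with 10 or more normalized counts in any 2 libraries. Fold changes of low genes are understated on this scale. The 2 passages of each line were averaged before TFCOs were compared with tissue or tissues with each other, as 1 line gives 1 independent sample. These fits held the lines and both tissues, so the spread behind each p-value was also estimated from the group outside the comparison. The same holds for the fits against 1 thyroid tissue. Late against early TFCOs used all 8 libraries. Nothing states that tissues 1 and 2 came from separate mice, so p-values measure the spread between these samples. edgeR 4.0.16 (quasi-likelihood) and DESeq2 1.42.0 on the recovered reads, other pseudocounts, filters and scalings, a replicate block, and leaving out each library were the alternatives. Early and late libraries of a line are paired by the line name in the titles, and their deviations from the group means correlated at 0.477 across genes. The fits were also run on simulated counts, drawn independently for each library. That simulation held no difference between lines and no sets of libraries, so it cannot show how the fits behave on these data.

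Symbols of 15883 genes matched GENCODE M21 and 236 did not. Genes named are the 9 members, the genes of the wider complement list that passed a test or fell into a level class, and the 3 genes most like each member; the list holds members of the complement pathways by textbook role. Genes singled out for the difference between lines, or between the thyroid tissues, were chosen after their values were seen. The members and lists were chosen with earlier results of these data known. Genes of the list outside the table were not analysed here. Results of some complement and marker genes are not reported here.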

Additional observations from a re-analysis of the deposited data

Results flagged for a closer look

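For 6 of the 9 genes the change from early to late passage had opposite signs in the 2 lines, as it had for 46.6% of the 14703 genes tested. Each line has 1 library per passage, so the difference was not tested. The log2 change was -1.84 in mThy14 and 0.12 in mThy16 for C3 (a difference of 1.96), 1.41 and -0.25 for CFB (-1.67), and 0.10 and -0.89 for C2 (-0.99). It was -0.29 and 0.49 for SERPING1 (0.78), 1.19 and -0.11 for CLU (-1.30), and -1.20 and 2.11 for CD55 (3.31). CFB, C2, SERPING1 and CD55 were counted from 4 to 28 reads in TFCO libraries, against 216 or more for C3 and 3782 or more for CLU.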

How the results depend on the processing

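With 2 libraries per group the spread between samples limits the precision, and low read counts (CFB throughout, and CFP, C5AR1 and mThy14's CFI in TFCOs) limit it further. SERPING1 stayed lower in TFCOs than in thyroid and lung tissue, past the threshold, under all 19 alternatives of each comparison, whereas CLU stayed higher in all 19 but missed the threshold in 11 (thyroid; adjusted p from 1.2e-07 to 0.150) and 10 (lung). Members called between TFCOs and thyroid tissue numbered 2, and 1 with no filter, quantile normalization, the same total, no trend, edgeR or only the groups compared, 4 with DESeq2 (CFP and CD55 added, both lower), and 1 to 4 when 1 library was left out. Against lung they numbered 5 and ranged from 1 to 6 when 1 library was left out. Between thyroid and lung they numbered 1, then 2 at a pseudocount of 10, 3 with DESeq2, 0 with only the groups compared, and 0 to 4 when 1 library was left out. The cause was not tested. Where 1 library of a group was left, it was assumed to vary like the others.

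Of the 43 complement genes tested, 18 had 10 or more normalized counts in every TFCO library, 8 had 50 or more, and 24 had more than 3 reads. Over all genes tested these shares were 77.4%, 59.4% and 86.2%. Complement genes higher in mThy16 by the limit for the lines numbered 4, where 1.44% of all genes tested met it. Over alternatives chosen after the data were seen they ranged from 3 to 5, and the share of all genes moved as well. There were 3 at a pseudocount of 10 (0.939% of all genes), 5 at a log2 difference of 2 or more (3.07%) and 4 at 4 or more (0.769%). Signs that turned belonged to changes that had not passed the threshold. The change of CFB from lung to thyroid was 0.0739 with edgeR and 0.102 with DESeq2; late against early, that of CFI was 0.0424 after quantile normalization and that of C3 was 0.0668 with edgeR and 0.0701 with DESeq2. Leaving out 1 library, late against early ranged from -4.00 to 2.29 for C3, -0.21 to 1.37 for CFB, -0.79 to 0.00857 for C2, -3.46 to 2.69 for CFI, -0.42 to 0.62 for SERPING1, -1.23 to 2.32 for CLU and -0.67 to 1.59 for CD55. Without 1 TFCO library, a single line at that passage was set against both lines at the other. These ranges thus mix the difference between lines with the passage change. Within a line, the passage change of C3 was -1.84 (mThy14) and 0.12 (mThy16). TFCOs against thyroid ranged from -0.27 to 0.65 for C3 (1.90 with edgeR and 1.91 with DESeq2), -0.83 to 1.90 for CFB and -0.19 to 0.45 for C2. For CFB the range was -0.53 to 0.99 against lung and -1.67 to 1.06 for thyroid against lung.

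With the line as a replicate block 0 members were called between passages, and 224 genes had an unadjusted p under 0.05. Thyroid and lung tissues share only a number (correlation of deviations -0.07). With that number as a replicate block 1 member was called, and 756 genes in place of 889. No block was fitted for TFCOs against either tissue.

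Over all genes, calls between TFCOs and thyroid numbered 536, and 124 with only the groups compared, 369 with edgeR, 1949 with DESeq2, 1322 with the 4 TFCO libraries as separate samples, 4085 without thyroid tissue 1 and 153 without lung tissue 2. Between TFCOs and lung they numbered 3435, and 2144 with edgeR, 5695 with DESeq2, 6979 with only the groups compared, 6625 with separate TFCO libraries, 6986 without thyroid tissue 1 and 248 without lung tissue 2. Between thyroid and lung they numbered 889, and 583 with edgeR, 2485 with DESeq2, 277 with only the groups compared, 4311 without thyroid tissue 2 and 58 without either lung tissue. Quantile normalization moved the median log2 fold change of all genes from 0.05 to 0.17 (TFCOs against thyroid) and to 0.32 (against lung).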
